A study of Mus musculus with 24 samples.

Results

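The genes described here are 9 whose signal differed between WT and BAF180-deficient CD4+ T cells with 1 sign over 4 cell states: Abcb1b, Abcb9, Aldh5a1, Car11, Abhd1, Gngt2, Gpr171, Sdcbp2 and Ly6c1. They were chosen from these same arrays, by their BAF180-deficient (KO) minus WT differences, so those differences are a description below and carry no test. The Illumina MouseRef-8 v2 table holds 17 probes of the 9 genes among its 25697 probes. Of the 17 probes, 16 were detected on at least 1 array, together with 14246 probes of 10418 genes in all, and each of the 9 genes kept at least 1 probe. Of the genes, 8 stand in the table under their own symbol. Ly6c1 was found through its RefSeq accession, under the older symbol Ly6c, and has a close paralog, Ly6c2, so that the share of each in this signal is uncertain.

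The arrays measured RNA of CD4+ T cells in 4 states, each with 3 WT and 3 KO arrays lettered A, B and C. Resting naive cells were CD4+CD62L+ cells selected from the spleen and lymph nodes of mice aged 4 to 6 weeks, and stimulated naive cells had spent 24 h on plates coated with anti-CD3 (1 µg/ml) and anti-CD28 (2 µg/ml). Resting Th2 cells, helper cells known for making IL-4 and other type 2 cytokines, had been grown from naive cells on such plates with IL-4 (10 ng/ml), anti-IFN-gamma (10 µg/ml) and IL-2 (100 U/ml). Stimulated Th2 cells had then received PMA (50 ng/ml) and ionomycin (500 ng/ml) for 1.5 h. The KO mice carried a conditional Pbrm1 allele, Pbrm1 being the gene of BAF180, and CD4-Cre, a recombinase driven by CD4 regulatory sequences that acts in thymocytes before the CD4 and CD8 lineages part, so that the deletion is not limited to CD4+ T cells. The labels call all mice Balb/c, while the methods describe a mixed B6-129 background for the conditional line. The methods speak of pairs of WT and KO mice, but the labels do not tie the letters to mice. Whether WT mice were littermates or carried CD4-Cre is not given in the sources used here. The errors below measure the spread between arrays.

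BAF180 is the polybromo subunit of PBAF, a form of the SWI/SNF complexes, which use ATP to move nucleosomes and so open or close DNA to transcription factors. The 9 genes belong to no single pathway. They encode 2 transporters that use ATP (Abcb1b and Abcb9), enzymes and relatives of enzymes (Aldh5a1, Car11 and Abhd1), parts of G protein signaling (Gngt2 and Gpr171), an adaptor of the plasma membrane (Sdcbp2) and a surface protein held by a lipid anchor (Ly6c1).

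Levels are log2 intensities after background correction and quantile normalization over all 24 arrays, and an added offset shrinks the differences of dim probes. Other background corrections and scalings gave smaller genotype differences for several of the genes, with values in the closing section. A probe was called detected on an array at a detection p of at most 0.02, and the brightest probes of the 9 genes read 4.14 to 4.92 where they were not detected. Between 8047 and 10689 probes were detected per array. The brightest Pbrm1 probe was lower in KO cells, with differences of -1.01, -1.63, -1.86 and -1.42 log2 units in resting naive, stimulated naive, resting Th2 and stimulated Th2 cells (limma adjusted p = 0.121, 0.00746, 0.00101 and 0.0141), with no overlap of KO and WT arrays in any state. Of the dimmer Pbrm1 probes, 1 was detected on 8 of 12 WT arrays and 0 of 12 KO arrays, the other on 10 and 2. The study's immunoblot of Th2 cells showed complete loss of BAF180 protein. Whether the brightest probe lies in the deleted exon was not determined here. All 7 CD4 T cell markers were detected on every array of every group. Resting naive preparations also carried transcripts of other cells: 6 myeloid markers averaged 7.91 to 8.67 per array there and 4.33 to 4.81 in the other states, and 5 B cell markers averaged 7.01 to 8.09 in resting naive cells and 4.93 to 6.82 elsewhere. Of the CD8 T and NK cell markers, Cd8b1 was detected on all 24 arrays and Klrd1 on 18. Klrk1 and Klrb1c were detected on 1 array each, and Cd8a and Ncr1 had no detected probe. KO minus WT differences of Cd8b1 were -0.14, -0.79, -0.95 and -0.70 (SE 0.43) in the same order of states. Medians of the 4 kept markers were -0.19, -0.04, -0.28 and -0.05. Their part in the differences of the 9 genes was not tested. In bulk RNA, fewer cells of a type and less RNA per cell cannot be told apart.

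Of the 9 genes, 4 were higher in KO cells in every state (Aldh5a1, Sdcbp2, Abcb1b and Gngt2) and 4 were lower (Ly6c1, Gpr171, Abcb9 and Abhd1), as the choice of genes required. Car11 also had fitted differences below 0 in every state, but its probe was not detected in either genotype in stimulated naive cells, so there its sign is read from background. Averaged over the 4 states, the brightest probe of each gene differed by 0.95 (Aldh5a1), 0.66 (Sdcbp2), 0.57 (Abcb1b), 0.47 (Gngt2), -0.53 (Abhd1), -0.71 (Abcb9), -0.81 (Gpr171) and -1.51 (Ly6c1) log2 units. No average is given for Car11, whose KO groups were detected on 1 array in all. Over all probes kept, 20.8% held 1 sign in all 4 states, 10.6% higher and 10.2% lower. KO and WT arrays did not overlap in 4 states for Aldh5a1 and Abcb9, in 3 states for Abcb1b, Gngt2 and Abhd1, in 2 states for Sdcbp2, Gpr171 and Car11, and in 1 state for Ly6c1. Among all probes 0.344% separated with 1 sign in at least 3 states and 0.0421% in all 4.

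Counted by state, 4 genes had all KO arrays above all WT arrays in resting naive cells and 2 had them below (4.13% and 3.85% of all probes, 7.99% together). Stimulated naive cells gave 2 genes above and 2 below (3.25%, 3.21% and 6.46%), resting Th2 cells 4 above and 3 below (5.56%, 4.50% and 10.1%) and stimulated Th2 cells 2 above and 5 below (3.66%, 3.65% and 7.31%). The methods of the study counted a gene as changed by 4 criteria on the size and the error of its difference, with a false discovery rate below 0.30. By these criteria 5 of the 9 genes were called in resting naive cells (Abcb1b, Aldh5a1, Sdcbp2, Abcb9 and Car11), where 0.681% of all probes were. In stimulated naive cells 2 were called (Aldh5a1 and Abcb9, with 0.112% of all probes), in resting Th2 cells 2 (Sdcbp2 and Abcb9, with 0.0842%), and in stimulated Th2 cells 0 (with 0.0913%). Unadjusted limma p-values below 0.05 numbered 973, 321, 489 and 397 of the 14246 probes in resting naive, stimulated naive, resting Th2 and stimulated Th2 cells. With no difference at any probe, a share of about 0.05 would pass. In every state but resting naive cells fewer passed than that. Because these contrasts chose the genes, the counts of the 9 genes say nothing beyond the choice. These counts moved with single arrays: leaving out 1 array at a time gave 4 to 6, 0 to 2, 0 to 4 and 0 to 2 genes in the same order of states. Without WT replicate C the count in resting Th2 cells was 4, and in stimulated Th2 cells, also without WT replicate C, it was 2. With only the 6 arrays of a state in the fit, the counts were 1, 0, 0 and 0.

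**Figure D1:**
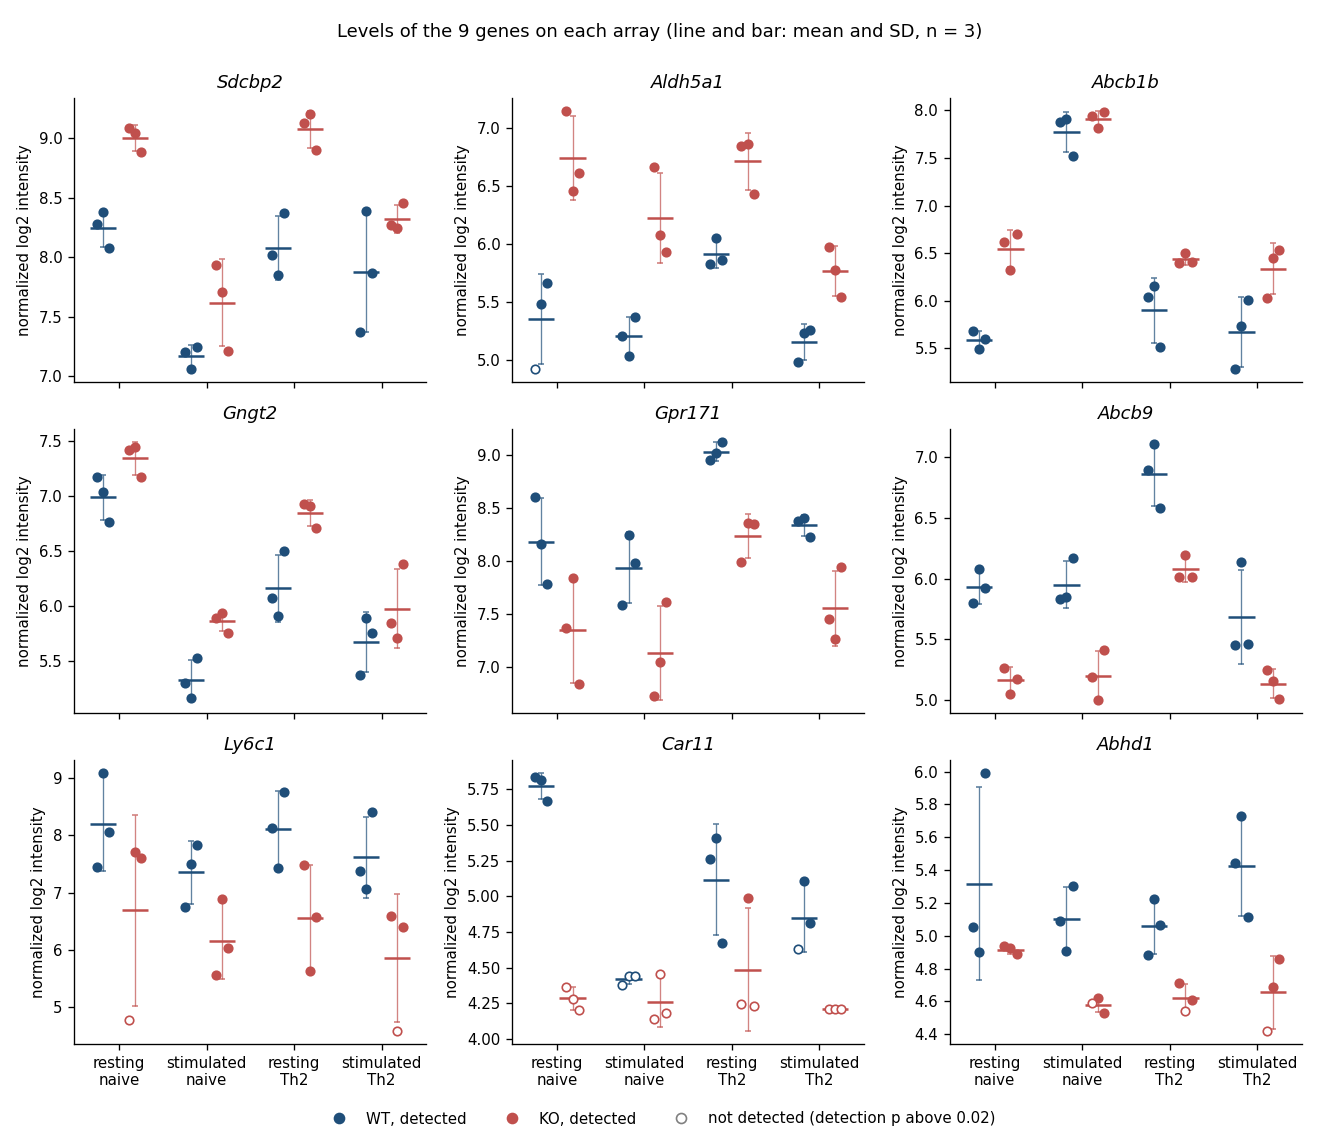
Normalized log2 intensity of the brightest probe of each of the 9 genes on the 24 arrays, by state, with WT in blue, KO in red, open circles for arrays on which the probe was not detected, and lines and bars for the mean and SD of 3 arrays (the y axes differ between genes). Aldh5a1 and Abcb9 separate by genotype in each of the 4 states, while the Ly6c1 arrays of a group spread widely, from 4.76 to 7.70 in resting naive KO cells.

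**Figure D2:**
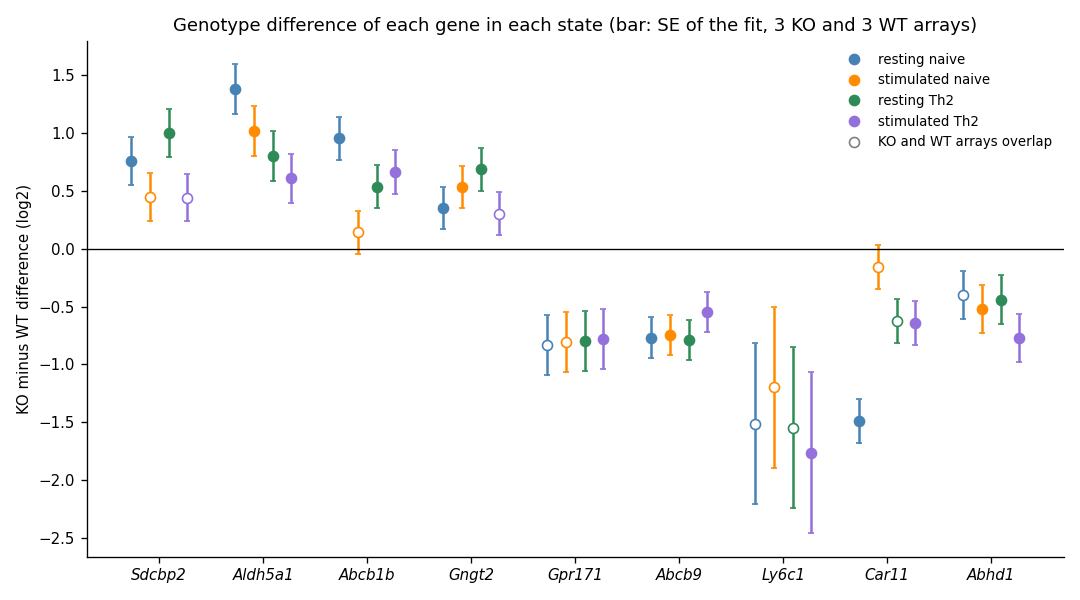
KO minus WT difference of each gene in each state on the log2 scale, with the standard error of the fit (3 KO and 3 WT arrays). Filled symbols mark states in which KO and WT arrays did not overlap. All 36 differences lie on the side of 0 by which the gene was chosen. The Car11 points of every state but resting Th2 are set against groups with no detected array, so they are bounds in resting naive and stimulated Th2 cells and not readable in stimulated naive cells.

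Abcb1b encodes 1 of the P-glycoproteins of the mouse, pumps that export lipophilic drugs and other compounds from the cell. It lies at chr5:8798147-8866314 (GRCm38.p6). Its only probe was detected on all 24 arrays. At rest in naive cells it read 5.68, 5.49 and 5.60 on the WT arrays and 6.62, 6.33 and 6.70 on the KO arrays, a difference of 0.96 log2 units (SE 0.19) or 1.94-fold. The KO arrays of resting naive cells thus all stood above the WT arrays. In stimulated naive cells WT arrays read 7.88, 7.91 and 7.53 and KO arrays 7.95, 7.82 and 7.98, so that the genotypes overlapped and differed by 0.14 (0.019 without WT replicate C). The difference was 0.54 in resting Th2 cells, from 5.90 ± 0.34 (SD, n = 3) in WT to 6.44 ± 0.06 in KO, and 0.66 in stimulated Th2 cells, from 5.67 ± 0.37 to 6.34 ± 0.27. Without WT replicate C the resting Th2 difference was 0.34. The genotype difference of Abcb1b was smallest in the state with its highest level.

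Abcb9 encodes a peptide transporter of lysosomes, a relative of the TAP proteins that feed peptides to MHC class I. It lies at chr5:124061857-124095955. WT arrays of its brightest probe read 5.80, 6.08 and 5.92 in resting naive cells and KO arrays 5.27, 5.05 and 5.18. Resting Th2 cells had the highest level, where WT arrays read 6.89, 7.11 and 6.59 and KO arrays 6.02, 6.20 and 6.01. Every KO array lay below every WT array in both states, and likewise in stimulated naive cells (5.95 ± 0.19 in WT and 5.20 ± 0.20 in KO) and stimulated Th2 cells (5.68 ± 0.39 and 5.14 ± 0.12). The differences were -0.77, -0.75, -0.79 and -0.55 (SE 0.17) in the order resting naive, stimulated naive, resting Th2 and stimulated Th2, or 1.46- to 1.73-fold lower. Without WT replicate B the difference in stimulated Th2 cells was -0.32.

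The table has 3 Abcb9 probes, and 2 of them read nearly the same bases, so that they check each other's hybridization rather than the gene. Their first 30 bases of 50 are shown with the stretch both share in capitals. The probes start at positions 3214 and 3215 of the transcript and share 49 bases.
Abcb9 ILMN_2597248: gTATTCTCAGATTGGTGGAGGGGGACCAAG
Abcb9 ILMN_2597249: TATTCTCAGATTGGTGGAGGGGGACCAAGG
Despite this overlap the second probe was dimmer, was detected on 20 of 24 arrays and gave differences of -0.52, -0.74, -0.88 and -0.70 (SE 0.31), with WT and KO arrays overlapping in resting naive cells. The remaining probe, at position 1655, was detected on 5 arrays, of which 4 were WT. Resting naive cells, where it was detected on no array, gave a difference of 0.03.

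Aldh5a1 encodes the mitochondrial succinic semialdehyde dehydrogenase, which completes the GABA shunt by turning succinic semialdehyde into succinate. It lies at chr13:24907579-24937661. Among resting naive cells WT arrays read 4.92 (not detected), 5.48 and 5.66, and KO arrays 7.15, 6.46 and 6.61. This was a difference of 1.38 log2 units (SE 0.22) or 2.61-fold. In stimulated naive cells WT arrays read 5.21, 5.03 and 5.37 and KO arrays 6.66, 6.07 and 5.93, or 2.02-fold higher. Resting Th2 cells gave 5.91 ± 0.12 in WT and 6.71 ± 0.25 in KO, and stimulated Th2 cells 5.16 ± 0.15 and 5.76 ± 0.21. No WT array reached a KO array of its state. The differences, 1.38, 1.02, 0.80 and 0.61, were larger in both naive states than in both Th2 states, and whether they differ between states was not tested. The second Aldh5a1 probe was not detected on any array, so these values rest on 1 probe.

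Car11 encodes a carbonic anhydrase-related protein, which has the fold of the family without its catalytic activity. It lies at chr7:45699171-45704687. Its single probe was near the detection limit and was detected on 8 of 12 WT arrays and on 1 of 12 KO arrays. For resting naive cells WT arrays read 5.84, 5.81 and 5.67, all detected, and KO arrays 4.37, 4.28 and 4.21, none detected. KO was therefore at least 1.95-fold lower there, the bound coming from the lowest signal that counted as detected on the KO arrays. All WT arrays of resting Th2 cells were detected (5.26, 5.41 and 4.67) and KO arrays read 4.24, 4.99 and 4.23 with replicate B detected, so that the genotypes overlapped. In stimulated Th2 cells WT arrays read 4.63, 5.11 and 4.82, 2 of the 3 detected, and no KO array was detected, at least 1.14-fold lower. Neither genotype was detected in stimulated naive cells, where no difference can be read.

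Abhd1 encodes a member of the alpha/beta hydrolase fold family, whose function is little known. It lies at chr5:30950066-30955095. Its brightest probe was detected on all 12 WT arrays and 9 of 12 KO arrays. In stimulated Th2 cells WT arrays read 5.44, 5.73 and 5.12 and KO arrays 4.42 (not detected), 4.69 and 4.86, a difference of -0.77 (SE 0.21). Differences were -0.40, -0.52 and -0.44 in resting naive, stimulated naive and resting Th2 cells. WT replicate C of resting naive cells read 5.99 against 5.06 and 4.90 for the other WT arrays, which lay around the KO arrays (4.94, 4.92 and 4.89). Without that array the difference there was -0.06, so 1 library carried it.

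Of the 3 Abhd1 probes, 2 overlap by 39 bases. The capitals mark the part of the first 30 bases that both share.
Abhd1 ILMN_2672778: ggagactttctACCCGACACTGTGGTGCTT
Abhd1 ILMN_2672772: ACCCGACACTGTGGTGCTTTGAGGGACGGC
Abhd1 ILMN_1245678: ctgacctgggagtactcactcctgaagatg
The probe listed last lies elsewhere in the transcript, starting at position 1237. It gave -0.79 (SE 0.17) in stimulated Th2 cells, where the WT arrays read 5.66, 6.03 and 5.65 and the KO arrays 5.05, 4.77 and 5.15. The same probe in resting naive cells gave 0.18, with 1 of 6 arrays detected. In stimulated Th2 cells the KO arrays lay below the WT arrays on all 3 probes, which is again a description of the contrast that chose the gene.

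Gngt2 encodes a gamma subunit of heterotrimeric G proteins, first known from cone photoreceptors. It lies at chr11:95841772-95845734. Among resting Th2 cells WT arrays read 6.07, 5.91 and 6.50 and KO arrays 6.92, 6.91 and 6.71, 0.69 higher (SE 0.18). In stimulated naive cells WT arrays read 5.30, 5.16 and 5.52 and KO arrays 5.89, 5.94 and 5.76, 0.53 higher. Both states separated without overlap, as did resting naive cells (6.99 ± 0.20 in WT and 7.34 ± 0.15 in KO). In stimulated Th2 cells the genotypes overlapped, at 5.67 ± 0.27 and 5.98 ± 0.36, and their difference of 0.30 was 0.10 without KO replicate C. The dimmer second probe was detected on 6 KO arrays and 1 WT array. Among resting Th2 cells it was detected on the 3 KO arrays and on no WT array, at least 1.09-fold higher.

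Gpr171 encodes a G protein-coupled receptor for the neuropeptide BigLEN, which is cut from the precursor encoded by Pcsk1n. It lies at chr3:59096448-59101821. In resting Th2 cells WT arrays read 8.94, 9.02 and 9.12 and KO arrays 7.99, 8.36 and 8.34. In stimulated Th2 cells WT arrays read 8.38, 8.41 and 8.22 and KO arrays 7.45, 7.26 and 7.94. The WT arrays of each Th2 state lay close together (SD 0.09 and 0.10), and all KO arrays lay below them. In naive cells the arrays of a group spread further and overlapped: 8.60, 8.15 and 7.78 in WT and 7.37, 7.83 and 6.84 in KO at rest, and 7.94 ± 0.33 and 7.13 ± 0.45 after stimulation. The 4 differences were -0.83, -0.81, -0.80 and -0.78 (SE 0.26), and varied less between states than their standard error.

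Sdcbp2 encodes syntenin-2, an adaptor with tandem PDZ domains that binds the lipid PIP2 in membranes. It lies at chr2:151572294-151590005. In resting Th2 cells WT arrays of the brightest probe read 8.02, 7.85 and 8.37 and KO arrays 9.12, 9.20 and 8.90, a difference of 1.00 (SE 0.21) or 2.00-fold. The WT arrays of resting naive cells read 8.28, 8.38 and 8.08 and KO arrays 9.09, 9.04 and 8.88, 1.69-fold higher. Genotypes did not overlap in either resting state. They overlapped in both stimulated states, at 7.17 ± 0.10 in WT and 7.62 ± 0.37 in KO naive cells and at 7.88 ± 0.51 and 8.32 ± 0.11 in Th2 cells. In stimulated Th2 cells WT replicate B read 8.39, above 2 of the KO arrays, and the other WT arrays 7.37 and 7.87. The difference of 0.44 there was 0.19 without WT replicate A and 0.70 without WT replicate B, and the 0.45 of stimulated naive cells was 0.29 without KO replicate A. A second probe, also detected on all 24 arrays, gave 0.42, 0.39, 0.81 and 0.74 (SE 0.25), and its arrays separated in stimulated Th2 cells (5.32, 6.29 and 5.83 in WT, 6.45, 6.61 and 6.60 in KO). The last Sdcbp2 probe was detected on 6 KO and 3 WT arrays, in the Th2 states.

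Ly6c1 encodes a surface protein of the Ly6 family, held in the membrane by a lipid anchor. It lies at chr15:75044018-75048920. Ly6C, a name shared with the product of its paralog Ly6c2, is known from monocytes, endothelium and memory T cells. The Ly6c1 differences of -1.51, -1.20, -1.55 and -1.76 were the largest of the 9 genes on average, and so were their standard errors (0.70). Among resting naive cells WT arrays read 7.45, 9.10 and 8.06 and KO arrays 4.76 (not detected), 7.70 and 7.61. In resting Th2 cells WT arrays read 8.13, 7.43 and 8.76 and KO arrays 7.48, 5.62 and 6.57. Genotypes overlapped in both. They separated in stimulated Th2 cells, where WT arrays read 7.38, 7.06 and 8.41 and KO arrays 6.59, 4.57 (not detected) and 6.40. KO replicate A was the low array in resting naive cells and KO replicate B in both Th2 states. Without KO replicate A the resting naive difference was -0.55, and without KO replicate B the stimulated Th2 difference was -1.12. The mean of 7 memory or effector markers in resting naive cells was 6.33 to 6.80 on WT and 6.96 to 7.21 on KO arrays. There the genotypes did not overlap, and 1 of the 7, S100a6 (named after its values were seen), met the 4 criteria. In stimulated Th2 cells they did not overlap either, but KO arrays were lower (7.19 to 7.29 in WT, 6.78 to 7.15 in KO). The ranges overlapped in stimulated naive cells (5.43 to 5.73 in WT, 5.56 to 6.02 in KO). So did those of resting Th2 cells (6.19 to 6.51 and 6.12 to 6.31). The study's staining showed the memory marker CD44 lower on peripheral T cells of KO mice. The part of these markers in the resting naive differences of the 9 genes was not tested.

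**Figure D3:**
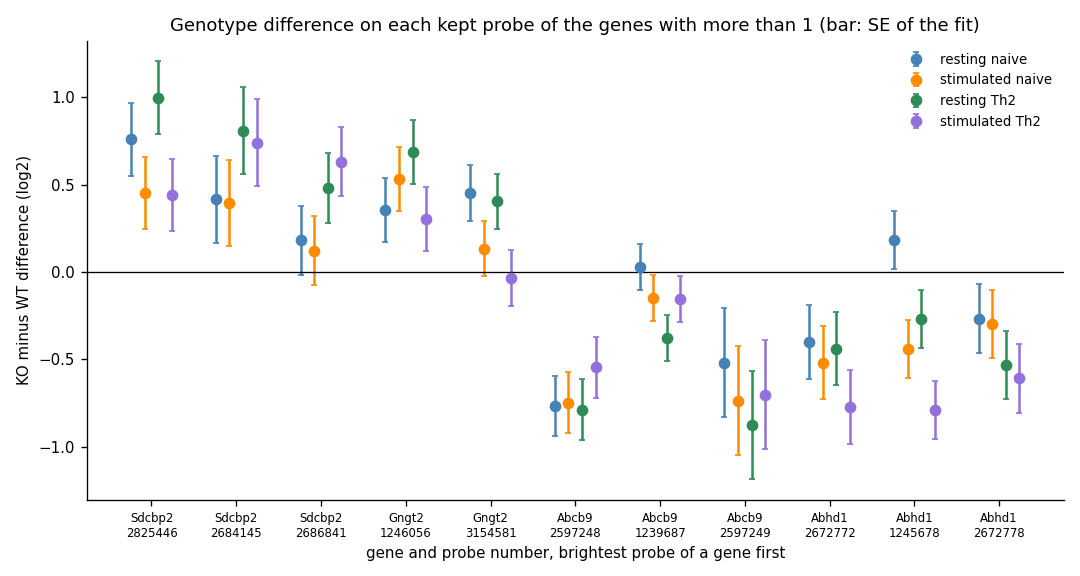
KO minus WT difference (log2, with the standard error of the fit) in each state on each kept probe of the 4 genes with more than 1, the brightest probe of a gene first. The Sdcbp2 probes lie above 0, although the dimmest was detected on no naive array and has no readable sign there. Differences on the other side of 0 from the brightest probe appear on 1 dim probe each of Gngt2 (-0.04 in stimulated Th2 cells), Abcb9 (0.03) and Abhd1 (0.18, both in resting naive cells).

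Within a state the same-letter KO and WT arrays can also be set side by side, although the labels do not tie letters to mice. Same-letter differences average to the differences that chose the genes, so the counts below are a description that follows from the choice. The 12 letters and states may also not be separate observations. Between 2 states of a genotype, array deviations from group means correlated best with their own letter in 32 of 36 cases. KO differed from WT in the direction of the gene for all 12 letters and states in Abcb9, Aldh5a1, Gpr171 and Ly6c1, for 11 of 12 in Abcb1b, Abhd1 and Gngt2, and for 10 of 12 in Sdcbp2. Car11 is left out, since it was not detected in stimulated naive cells. The exceptions, the largest of them -0.19 log2 units in Gngt2, were in stimulated naive cells (letter B of Abcb1b, letter C of Sdcbp2), in stimulated Th2 cells (letter B of Gngt2 and Sdcbp2) and in resting naive cells (letter B of Abhd1).

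The cell states were compared over both genotypes together, a contrast that the choice of genes did not use, with limma and Benjamini-Hochberg adjustment over all 14246 probes. Stimulation of naive cells with anti-CD3 and anti-CD28 raised Abcb1b and lowered Gngt2, Sdcbp2 and Car11. Abcb1b rose by 1.77 log2 units (SE 0.13, adjusted p = 3.92e-10), from 5.59 ± 0.10 to 7.77 ± 0.21 in WT and from 6.55 ± 0.20 to 7.91 ± 0.09 in KO. Gngt2 fell by 1.57 (SE 0.13, adjusted p = 1.98e-09) and Sdcbp2 by 1.23 (SE 0.15, adjusted p = 3.69e-07), each in both genotypes. Car11 fell by 0.69 (SE 0.13, adjusted p = 0.000165) over both genotypes, with -1.35 in WT and -0.02 in KO arrays, to readings at background. The 3 resting naive WT arrays were the only ones of these 12 on which the probe was detected, so KO cells give no readable change. These 4 calls among the 9 genes compare with 55.0% of all probes, 29.3% higher and 25.7% lower.

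Differences of the other 5 genes in naive cells were -0.33 for Aldh5a1 (adjusted p = 0.0697), -0.28 for Abhd1 (0.122), -0.23 for Gpr171 (0.298), -0.69 for Ly6c1 (0.248) and 0.03 for Abcb9 (0.861). With genotype and letter together as a block, Aldh5a1 was called (adjusted p = 0.0182). The standard error was 0.49 for Ly6c1 and 0.12 to 0.18 for the others. All 6 myeloid markers and 3 of 5 B cell markers also fell between resting and stimulated naive cells, with median differences of -3.65 and -1.65. Their part in the falls of Gngt2, Sdcbp2 and Car11 was not tested.

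Stimulation of Th2 cells with PMA and ionomycin lowered 5 of the 9 genes and raised none, where 18.3% of all probes rose and 20.6% fell (38.8% in all). Abcb9 fell by 1.06 (SE 0.12, adjusted p = 5.59e-07), Aldh5a1 by 0.85 (adjusted p = 0.000116), Gpr171 by 0.69 (0.00455), Gngt2 by 0.68 (0.000246) and Sdcbp2 by 0.48 (0.0121). The Sdcbp2 fall lay mostly in KO arrays, with -0.76 there and -0.20 in WT arrays, which alone did not pass (adjusted p = 0.576). Gngt2 gave -0.87 in KO and -0.49 in WT arrays. In this comparison none of the 6 myeloid markers and 1 of the 5 B cell markers was called. Abcb1b, which rose with anti-CD3 and anti-CD28 over 24 h, differed by -0.16 (adjusted p = 0.386) after 1.5 h of PMA and ionomycin. The agents and the times differ, so these responses are given side by side only. Differences of Car11, Ly6c1 and Abhd1 were -0.27, -0.60 and 0.20 (adjusted p = 0.125, 0.392 and 0.327). Abhd1 disagreed between probes here: the other 2 probes gave 0.63 (adjusted p = 0.000192) and 0.46 (adjusted p = 0.0114). So did Sdcbp2, whose second probe gave -0.03 (adjusted p = 0.939) after Th2 stimulation, while in naive cells it also fell, by 0.90 (adjusted p = 0.00016).

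Resting Th2 cells compared with resting naive cells had more Abcb9 and Gpr171 and less Gngt2. Abcb9 was higher by 0.92 (SE 0.12, adjusted p = 2.88e-06), from 5.93 ± 0.14 to 6.86 ± 0.26 in WT and from 5.16 ± 0.11 to 6.08 ± 0.11 in KO. Gpr171 was higher by 0.87 (SE 0.18, adjusted p = 0.000499), with 0.85 in WT and 0.88 in KO. Gngt2 was lower by 0.66 (SE 0.13, adjusted p = 0.000256). Calls over all probes were 49.7%, 27.2% higher and 22.5% lower. The remaining 6 genes differed by between -0.28 and 0.26, with adjusted p from 0.127 to 0.866. Among them Car11 was called in WT arrays alone (-0.66, adjusted p = 0.0101), and Aldh5a1 with Z-score normalization (0.36, adjusted p = 0.00291). The dimmest Sdcbp2 probe was higher in resting Th2 cells (adjusted p = 0.00410), at least 1.07-fold, where the brightest probe was not. All 6 myeloid and all 5 B cell markers were lower in resting Th2 cells (medians -3.17 and -1.58), and their part in the Gngt2 difference was not tested.

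**Figure D4:**
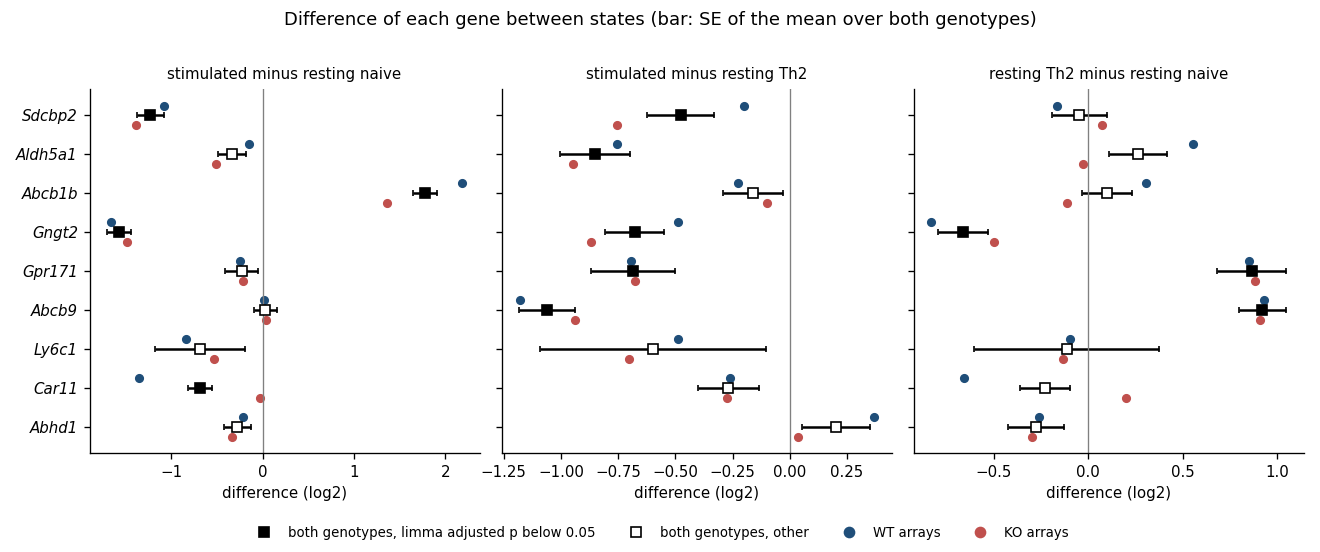
State difference of each gene on the log2 scale. Black squares give the mean over both genotypes with its standard error, filled where the limma adjusted p was below 0.05, and blue and red points the differences of the WT and KO arrays alone. For Abcb1b the WT and KO points of the naive comparison are 2.18 and 1.37. The Car11 points of that comparison end in arrays with no detection, and its KO point has none before or after stimulation. For Abcb9 and Gpr171 the points of the Th2 against naive comparison nearly coincide (0.93 and 0.91, 0.85 and 0.88).

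Ordered by level over both genotypes, Abcb9 and Gpr171 were highest in resting Th2 cells. Gngt2 was highest in resting naive cells and lowest in both stimulated states, which were not compared. Sdcbp2 was high in both resting states, which did not differ beyond their error (-0.05, SE 0.15, adjusted p = 0.817), and lowest in stimulated naive cells. Abcb1b stood highest in stimulated naive cells, with the other 3 states between 5.59 and 6.55 in either genotype. For Ly6c1 and Abhd1 none of the 3 state differences passed the test on the brightest probe.

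Gngt2 and Sdcbp2 varied together. Their Pearson correlation over the 24 arrays was 0.85, a description over arrays that share states and genotypes. After the mean of each group of 3 was subtracted it was 0.75, the highest of the 36 pairs among the 9 genes. The correlation that followed was 0.53 (Abcb9 and Car11), and Aldh5a1 and Gpr171 stood at -0.60. Levels of a pair can also share the normalization of an array.

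**Figure D5:**
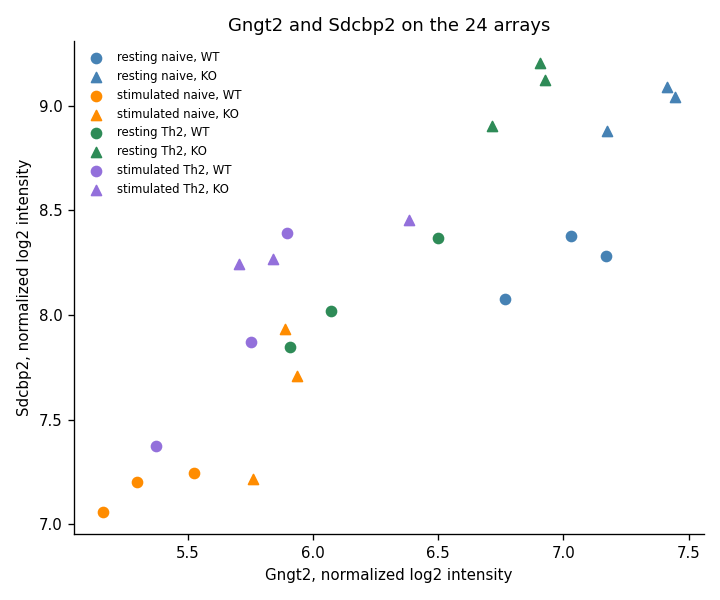
Normalized log2 intensity of Gngt2 (x) and Sdcbp2 (y) on the 24 arrays, coloured by state, with circles for WT and triangles for KO. In each state the KO arrays lie up and to the right of the WT arrays, with overlap in stimulated cells, and the lowest array on both axes is a stimulated naive WT array (5.16 and 7.06).

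For each of the 9 genes the 2 genes most like it over the 24 arrays were found among probes detected on at least 12. They were Tufm (r = 0.92) and Guk1 (0.91) for Abcb1b, Pdlim1 (0.85) and Fah (0.84) for Abcb9, Ebpl (0.83) and Dpcd (0.80) for Aldh5a1, and Kdsr (0.80) and Gpc1 (0.77) for Car11. Gngt2 was most like Cela1 (0.94) and Cxcr4 (0.92), Sdcbp2 most like Gmfg (0.86) and Gngt2 (0.85), and Gpr171 most like Abcb9 (0.80) and Npc2 (0.75). Pbrm1 itself led for Abhd1 (0.67, then Nrn1 at 0.62) and for Ly6c1 (0.65, then Hps1 at 0.63). These are the 2 genes with the lowest leading values, and genes chosen for a genotype difference share it with Pbrm1.

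Relatives of the 9 genes, from lists that leave the 9 out, were measured on the same arrays. By the 4 criteria, Aldh16a1 in resting naive cells (0.76 higher in KO, limma adjusted p = 0.214) was the only relative called between genotypes in any of the 4 states and is named for that after its values were seen, among 6 ABC transporters of the B subfamily, 17 genes of the GABA shunt and aldehyde dehydrogenases, 10 G protein beta and gamma subunits, 7 P2Y12-like receptors with Pcsk1n listed among them, 9 Ly6 genes, 7 carbonic anhydrases, 7 syntenins, syndecans and partners, and 13 ABHD hydrolases. Their median KO minus WT differences lay between -0.17 and 0.13 in every list and state, and over all probes between -0.0011 and 0.0017.

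Between states the relatives changed in both directions. Over all probes 29.3% rose and 25.7% fell with stimulation of naive cells, and 18.3% and 20.6% with stimulation of Th2 cells. The counts below were not tested against these shares. Stimulated naive cells had 1 higher and 5 lower of 7 P2Y12-like receptors, led by P2ry14 (-2.93, adjusted p = 4.91e-12), and Gpr183 fell by 1.40 (adjusted p = 7.44e-07) while Gpr18 rose by 0.97. Gpr171, of the same family, gave -0.23 there (adjusted p = 0.298). Sdcbp, which encodes syntenin-1, fell by 1.24 (adjusted p = 8.99e-07), beside the -1.23 of Sdcbp2, and the syndecan gene Sdc3 fell by 3.06. Of their list of 7, 1 rose and 4 fell. Of 7 carbonic anhydrases 3 rose and 2 fell, and of 17 GABA shunt and aldehyde dehydrogenase genes 6 rose and 6 fell. Among the 6 ABC transporters of the B subfamily 2 rose and 2 fell. Of 10 G protein subunits 3 rose and 2 fell, and of 13 ABHD hydrolases 3 rose and 3 fell. Of 9 Ly6 genes 1 rose and 3 fell. Ly6a, the brightest of them, rose by 2.07 (adjusted p = 4.86e-10), and Ly6d fell by 1.95 (adjusted p = 1.43e-07). The Ly6d probe was detected on 7 of the 24 arrays, so the size of its fall is uncertain. The 6 myeloid markers fell in the same comparison (median -3.65), and their part in the falls of these relatives was not tested. In Th2 cells after PMA and ionomycin the counts were 1 higher and 3 lower P2Y12-like receptors, 4 and 5 GABA shunt and aldehyde dehydrogenase genes, 2 and 2 G protein subunits, 0 and 3 Ly6 genes, 3 and 0 carbonic anhydrases, 1 and 1 syntenin list genes, 3 and 6 ABHD hydrolases and 1 and 1 ABC transporters.

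The 9 genes lie on 7 chromosomes, none on that of Pbrm1 (chr14). On chromosome 5 are 3 of them, which holds 6.37% of the 10296 kept genes with a RefSeq position. Abcb1b and Abhd1 are 22.1 Mb apart, and Abhd1 and Abcb9 93.1 Mb. Abcb1b was higher in KO cells, and Abhd1 and Abcb9 were lower.

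RefSeq promoter windows, from 250 bases before a gene's start to 50 after it, were at hand for 6 of the 9 genes (8 windows, GRCm38.p6). Their content of CG pairs differed: 24 in Aldh5a1, 23 in Abcb9, 12 in Abcb1b, 11 and 13 at both Car11 starts, 10 in Sdcbp2, and 0 and 1 at both Ly6c1 starts, against a median of 7 over 32851 windows. Motifs were searched on both strands. TGANTCA, the core of AP-1 sites, was in the Sdcbp2 window and in 7.81% of all windows. TTCNNNNGAA, a spacing bound by STAT6, was in the Abcb9 window and in 6.95% of all. TATAAA was at 1 Ly6c1 start and in 13.6% of all, TTCNNNGAA (8.30% of all) and TGACGTCA (1.79%) in none of the 8 windows. A match describes these letters and is not a binding site.

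For 4 genes the 250 bases before the start are shown, since these 4 genes span the range of CG content and hold the matches. Each runs 5′ to 3′ on the strand of the gene. Capitals mark the AP-1 match in Sdcbp2 (chr2:151572373-151572622, plus strand), the match of TTCNNNNGAA in Abcb9 (chr5:124095799-124096048, minus strand), each of 17 CG pairs in Aldh5a1 (chr13:24937662-24937911, minus strand) and TATAAA in Ly6c1 (chr15:75048838-75049087, minus strand).
Sdcbp2: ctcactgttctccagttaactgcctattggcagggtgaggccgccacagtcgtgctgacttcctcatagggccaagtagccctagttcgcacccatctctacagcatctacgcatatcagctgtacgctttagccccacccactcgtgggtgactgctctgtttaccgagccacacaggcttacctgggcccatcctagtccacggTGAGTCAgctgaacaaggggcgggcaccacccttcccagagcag
Abcb9: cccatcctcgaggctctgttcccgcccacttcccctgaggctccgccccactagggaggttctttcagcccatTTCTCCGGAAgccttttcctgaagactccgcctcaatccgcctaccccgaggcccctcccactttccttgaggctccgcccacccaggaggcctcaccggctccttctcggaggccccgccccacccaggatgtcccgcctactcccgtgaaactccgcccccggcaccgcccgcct
Aldh5a1: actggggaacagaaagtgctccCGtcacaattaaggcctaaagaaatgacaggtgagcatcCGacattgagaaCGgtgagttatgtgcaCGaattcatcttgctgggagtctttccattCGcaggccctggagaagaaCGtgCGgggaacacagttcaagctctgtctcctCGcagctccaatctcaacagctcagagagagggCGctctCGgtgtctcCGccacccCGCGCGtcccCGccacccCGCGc
Ly6c1: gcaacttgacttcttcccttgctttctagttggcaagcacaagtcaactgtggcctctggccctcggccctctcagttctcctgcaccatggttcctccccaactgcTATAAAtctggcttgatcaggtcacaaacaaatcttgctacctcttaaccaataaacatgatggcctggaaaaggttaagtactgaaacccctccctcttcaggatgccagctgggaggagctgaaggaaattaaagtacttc
The Sdcbp2 match ends 38 bases before the start, the Abcb9 match 168 and the Ly6c1 match 138.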

How the data were processed

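RNA of 24 CD4+ T cell samples was measured on Illumina MouseRef-8 v2 BeadChips. The authors deposited 1 table of non-normalized probe intensities with a detection p-value per probe and array, and their processing notes name GenomeStudio 1.6.0. Samples were grouped from the labels, and columns were matched to samples by name. In R 4.3.3 with limma 3.58.1, neqc estimated the background from the detection p-values, added an offset of 16 and normalized by quantiles over all arrays. A probe entered the fit if 1 or more arrays detected it, with p of 0.02 or less. Probes were named through the RefSeq tables by gene ID, accession or symbol.

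One limma model with 8 group means gave the genotype difference in each state and 3 state differences over both genotypes, with Benjamini-Hochberg adjustment over all kept probes. With 16 residual degrees of freedom, the median standard error was 0.193 for genotype and 0.136 for state differences. The number of arrays limits this precision. The study's methods used Z-scored log2 intensities, and their 4 criteria (Z-ratio beyond 1.5, false discovery rate below 0.30, p below 0.05, positive mean signal) were applied here to limma's fit. All arrays of a group differed, with at most 0.646% of values equal.

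The genes and the lists were chosen with earlier results of these data known. Named are all 9 genes on every probe, Pbrm1, the 2 genes most correlated with each, and up to 4 of the brightest genes of a list. For a group in which a probe was detected on no array, folds were bounded by the lowest intensity that counted as detected on each array. Scripts were tested on simulated data. Alternatives were other background corrections, scalings, filters, priors, sample sets, blocks and probes, and leaving out each array. The slide of an array was not used, since the columns do not give it.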

Additional observations from a re-analysis of the deposited data

How the results depend on the processing

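All 9 genes kept 1 genotype sign over the 4 states when any 1 of the 24 arrays was left out (9 to 9 genes). These signs chose the genes, so this says little beyond the choice. The Car11 sign in stimulated naive cells is read from background. The 12 called state differences stayed called when any 1 array was left out. Counts called by the 4 criteria were less stable. In resting naive cells the count of 5 became 3 with Z-score normalization, 1 with only the groups compared and 0 with normalization within the state. In stimulated naive cells the count of 2 became 1 with Z-score normalization or with a trend and robust prior. It became 0 without background correction, with an offset of 50, without a detection filter, with detection on at least 3 arrays, with only the groups compared and with normalization within the state. In resting Th2 cells the count of 2 became 1 with a trend and robust prior and 0 without a detection filter, with only the groups compared and with normalization within the state. Leaving out 1 array gave 4 to 6 genes in resting naive, 0 to 2 in stimulated naive, 0 to 4 in resting Th2 and 0 to 2 in stimulated Th2 cells. For state differences it gave 4 to 5 (stimulation of naive cells), 5 to 6 (stimulation of Th2 cells) and 3 to 4 (resting Th2 against naive). The 5 called with Th2 stimulation became 2 in WT arrays only, a smaller set of samples. Over all probes, the genotype calls of 97, 16, 12 and 13 became 1, 0, 1 and 0 with only the groups compared, 0, 0, 1 and 0 within the state, 32, 5, 23 and 15 with Z-score normalization, 70, 5, 11 and 9 without background correction, 113, 9, 5 and 9 without a detection filter, 75, 4, 13 and 11 with detection on at least 3 arrays and 116, 14, 19 and 13 with an offset of 50. Differences that changed sign were small. Between resting Th2 and naive cells, KO arrays only gave -0.11 for Abcb1b, -0.0275 for Aldh5a1, 0.20 for Car11 and 0.0738 for Sdcbp2, and Z-score normalization gave 0.0277 for Ly6c1 and 0.0384 for Sdcbp2. Leaving out 1 array gave -0.60 to 0.14 for Ly6c1 and -0.12 to 0.0113 for Sdcbp2 there, and -0.0267 to 0.0781 for Abcb9 with stimulation of naive cells. In resting naive cells a dim Abcb9 probe gave 0.0289 and a dim Abhd1 probe 0.18, and in stimulated Th2 cells a dim Gngt2 probe gave -0.04. Called differences that lost their call were Car11 in naive KO arrays (-0.02), Gngt2 (-0.49), Gpr171 (-0.69) and Sdcbp2 (-0.20) with Th2 stimulation in WT arrays, Gpr171 there in KO arrays (-0.68), and Gngt2 between resting Th2 and naive cells with Z-score normalization (-0.24). The cause of these lost calls was not tested, also where fewer samples were fitted. Of the genotype differences of single genes, 57 were counted as moved by more than the spread between arrays. Another 1 was counted as a change of sign (the dim Abcb9 probe) and 294 as neither. The 57 include the dim Abhd1 and Gngt2 probes, which also changed sign. Each of the 57 was smaller in size than the main difference. In resting naive cells Z-score normalization gave 0.82 for Aldh5a1 (1.38 in the main fit), 0.60 for Abcb1b (0.96) and -0.39 for Abcb9 (-0.77). Without background correction these were 0.95, 0.67 and -0.48. Differences that gained a call were Car11 between resting Th2 and naive cells in WT arrays only (-0.66) and Aldh5a1 there with Z-score normalization (0.36).

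The letters A, B and C were not read as pairs. Deviations from the group means of same-letter WT and KO arrays correlated at between -0.0026 and 0.662, over 0.1 in 10 of 12 pairs, and 13 of 24 arrays correlated best with their own letter. Between 2 states of a genotype, same-letter arrays correlated at between -0.0092 and 0.427, over 0.1 in 12 of 18 pairs, and in 32 of 36 cases best with their own letter, a hint from the data that a letter may mark a shared source. With the replicate letter as a block, 5, 2, 2 and 0 genes were called between genotypes and 4, 5 and 3 between states, and all-probe genotype calls were 122, 23, 17 and 18. With genotype and letter together as a block the state counts were 5, 5 and 3, the added gene being Aldh5a1 with stimulation of naive cells (-0.33, limma adjusted p = 0.0182). A slide block was not run, since the columns do not give the slide. Near the detection limit, as for Car11 and the dim second probes, the arrays limit a difference to a bound.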
